A study of Mus musculus with 6 samples.

Results

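Transient receptor potential (TRP) channels are cation channels of the plasma membrane, of cilia and of endosomes and lysosomes, and most of them let calcium into the cytosol. Each channel is an assembly of subunits with membrane-spanning segments around a shared pore. They open to different stimuli, among them lipids, cell swelling, heat, steroids, intracellular calcium and stretch. In the choroid plexus (ChP), the epithelium that secretes cerebrospinal fluid, TRPV4 is known as a calcium channel of the apical membrane that opens when the osmolarity of the surrounding fluid falls. Trpm3 is known there as a strongly transcribed gene that carries a microRNA gene in an intron. The genes measured were the 8 TRP superfamily members Trpm3, Trpv4, Trpc1, Trpm4, Trpm5, Trpm7, Mcoln1 and Pkd2, taken by symbol from a table of 24354 genes that holds 28 TRP genes in all. Each of the 8 had 1 row.

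The values come from TRAP-seq, in which ribosomes that carry a tagged protein are pulled down with the mRNA on them. The mice were Foxj1:cre crossed with EGFP:L10a at both ages, so that tagged ribosomes were made where the Foxj1 promoter had been active. This promoter serves cells with motile cilia, which include the ChP epithelium and the ependyma that lines the ventricles. ChP from the lateral ventricles was sampled from adults aged 60 days (n = 3) and from embryos at E16.5 (n = 3). The methods describe each sample as a pool of several mice or litters, while the description of the series gives 3 mice per age, and sex is not given for the samples. Where samples do not stand for separate animals, a p-value measures only the spread between these samples.

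Expression is given as FPKM, in which the fragments of a gene are divided by transcript length and by the mapped reads of the library, so that levels of different genes can be set side by side per length. The ages were compared with limma on log2(FPKM + 1) over the 11601 genes with a mean FPKM above 1, which include all 8 members. A gene was called when its p, adjusted over all these genes, was under 0.05, and every log2 change is adult minus E16.5. An exact permutation test of 3 against 3 samples was added for single values, and 0.1 is the smallest p it can give. Among the genes tested the median log2 change was -0.86, so that a member near 0 lies above most of them.

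The libraries were not alike. Low values step by what 1 read is worth. Read from these steps, adult replicate 3 had the least depth. Adult replicates 1 and 2 had 1.28 and 2.90 times its depth, and E16.5 libraries 4.10 to 5.17 times. Of the genes tested, 10.3% to 36.4% were listed at 0 in an adult library and 3.68% to 4.02% in an E16.5 library. The row of Mir6236 took 32.7% to 51.7% of the summed FPKM in the adult libraries and 13.3% to 15.0% at E16.5. Over all genes tested, 2.12% passed the test with higher adult levels and 8.83% with higher E16.5 levels. Of 12 markers of ChP epithelium, 5 passed with higher adult levels and 1 with higher E16.5 levels. Their summed FPKM was 39750 to 55019 in adult and 2924 to 3379 at E16.5, and the defining marker Ttr had a listed value of 0 in all 3 embryonic samples. An exact 0 can be a failed estimate, so the adult sums, which include Ttr, cannot be set against those of E16.5. Of 8 tested markers of motile cilia, 0 passed with higher adult levels and 4 with higher E16.5 levels, with sums of 288 to 464 and 1030 to 1241. Foxj1 itself, whose promoter drives the Cre, was at 48.7 ± 12.5 FPKM in adult and 187 ± 28.3 at E16.5 (SD, n = 3 each), an adjusted p of 0.0127 by limma. Markers of red blood cells summed to 0 to 6.49 FPKM in adult and 54.1 to 324 at E16.5, those of neurons to 0 to 3.24 and 4.68 to 93.9, and those of mesenchyme to 21.6 to 33.9 and 82.3 to 106. Endothelial markers summed to 0.489 to 14.1 and 17.6 to 42.3 FPKM, with Esam at 0 in all samples and Pecam1 at 0 in all but adult replicate 2. Mural markers summed to 4.85 to 13.2 and 6.18 to 7.73, and macrophage markers to 0.0695 to 6.82 and 0.584 to 8.48, with Aif1 and C1qc at 0 in all samples. The part of these differences in the results on the channels was not tested. In bulk samples, fewer cells of a type and less RNA per cell cannot be told apart.

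Among the channels, Trpv4 rose with age and Trpm3 was the most abundant at both ages. Trpv4 encodes the osmotically sensitive calcium channel of the apical membrane named above. It lies on mouse chromosome 5 (mm10, chr5:114622152-114658421, minus strand). The 250 bases before its annotated start are shown because Trpv4 is the member that rose, and those before Trpm3 because it is the most abundant member. Both are RefSeq sequence of build GRCm38.p6, read 5′ to 3′ in the direction of transcription, and they end next to the start (Trpv4 chr5:114658422-114658671, minus strand, and Trpm3 chr19:22138796-22139045, plus strand). Capitals mark GGGCGG, the GC box.
Trpv4: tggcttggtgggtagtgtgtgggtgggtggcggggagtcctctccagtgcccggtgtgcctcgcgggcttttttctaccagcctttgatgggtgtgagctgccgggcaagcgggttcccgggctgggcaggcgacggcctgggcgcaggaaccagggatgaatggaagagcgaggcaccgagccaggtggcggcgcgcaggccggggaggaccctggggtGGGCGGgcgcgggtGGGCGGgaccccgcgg
Trpm3: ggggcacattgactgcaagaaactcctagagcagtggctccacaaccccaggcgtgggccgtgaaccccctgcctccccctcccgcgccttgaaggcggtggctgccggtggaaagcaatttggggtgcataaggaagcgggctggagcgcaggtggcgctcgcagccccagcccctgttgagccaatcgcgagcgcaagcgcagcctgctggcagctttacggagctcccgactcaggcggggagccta
The Trpv4 window had a GC content of 72.0% with 22 CpG, and the Trpm3 window 66.4% with 17 CpG, where the median of 32851 such windows was 52.4% with 6 CpG. A second RefSeq start of Trpm3 had a window with a GC content of 59.2% and 9 CpG (chr19:22447958-22448207). GC boxes stood at bases -30 to -25 and -16 to -11 before the Trpv4 start. A GC box on either strand was found in 32.7% of all windows. Among the members it was also in the windows of Trpc1 and Mcoln1, and the window of Trpm7 held 26 CpG. Trpc1, Mcoln1 and Trpm7 were not called. The letters TAATCC (core of the OTX2 motif), TGTTTAC (forkhead), TATAAA, TGACGTCA and CACGTG were in neither of the printed windows on either strand, and in 6.25%, 3.17%, 12.4%, 1.55% and 6.02% of all windows. RefSeq windows were matched for 7 of the 8 members. A match of letters describes the window and is not a binding site.

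In the adult samples Trpv4 was at 85.5, 111 and 149 FPKM, and in the E16.5 samples at 24.4, 25.8 and 14.5 FPKM. The lowest adult sample was above the highest E16.5 sample, and the shallow adult replicate 3 had the highest level. The means were 115 ± 31.8 and 21.6 ± 6.14 FPKM (SD, n = 3 each), 5.34-fold higher in adult. On the log2(FPKM + 1) scale Trpv4 rose by 2.37 (SE 0.37, 95% interval 1.50 to 3.24), an adjusted p of 0.0131 by limma, with an exact permutation p of 0.1. By mean level it ranked 385th of all genes in the adult and 3822nd at E16.5. The values stand for many reads: if all of them came from coding transcripts of the annotated lengths, 2295 to 3228 bases, the fewest were 448 to 648 reads in E16.5 replicate 3, and the most were 2061 to 2978 in adult replicate 2. None of its 50-base stretches was shared with another gene. The rise was called in 19 of 22 other settings and had the same direction in all 22. Without E16.5 replicate 1, 2 or 3 it was not called (adjusted p = 0.0608, 0.0632 and 0.0573 by limma, with the filter on mean FPKM taken anew), though its log2 change was still 2.47, 2.51 and 2.12. When the same genes were tested as with all 6 samples, those adjusted p were 0.0422 to 0.0490. The fits with the same genes tested were added after seeing the data and are counted among the 22 settings.

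Trpm3 encodes a calcium-permeable channel that is opened by heat and by the steroid pregnenolone sulfate. It spans chr19:22139046-22995410 on the plus strand in mm10, with 24 annotated transcripts. Its levels were 193, 246 and 223 FPKM in adult and 262, 314 and 291 FPKM at E16.5, so that each adult sample lay below each E16.5 sample. The highest adult and the lowest E16.5 sample were closer to each other than the samples of one age were spread. The means were 220 ± 26.6 and 289 ± 26.2 FPKM (SD, n = 3 each), and Trpm3 ranked 160th of all genes in adult and 173rd at E16.5. The log2 change of -0.39 (SE 0.23, 95% interval -0.93 to 0.14) did not pass the test (adjusted p = 0.277 by limma, exact permutation p = 0.1). It lay 0.46 above the median change of all genes tested. The result depended on the scaling of the libraries. With each library rescaled to the same sum, Trpm3 was called lower in adult (log2 change -1.22, adjusted p = 0.0302 by limma). With Mir6236 left out of that sum the change was -0.56 (adjusted p = 0.186), with median-ratio scaling -0.05 (0.889), and with quantile normalization it turned to 0.078 (0.859). The coding transcripts of Trpm3 run from 726 to 12305 bases, so that adult replicate 1 holds anywhere from 397 to 9130 reads, depending on which of them were made. Exons of Trpm3 share 351 bases with C330002G04Rik and 277 with Gm27151 on the opposite strand. How Cuffquant was set for strand is not given in the sources used here, so these reads cannot be told apart, though only 2.13% of the 50-base stretches of Trpm3 are shared.

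**Figure D1:**
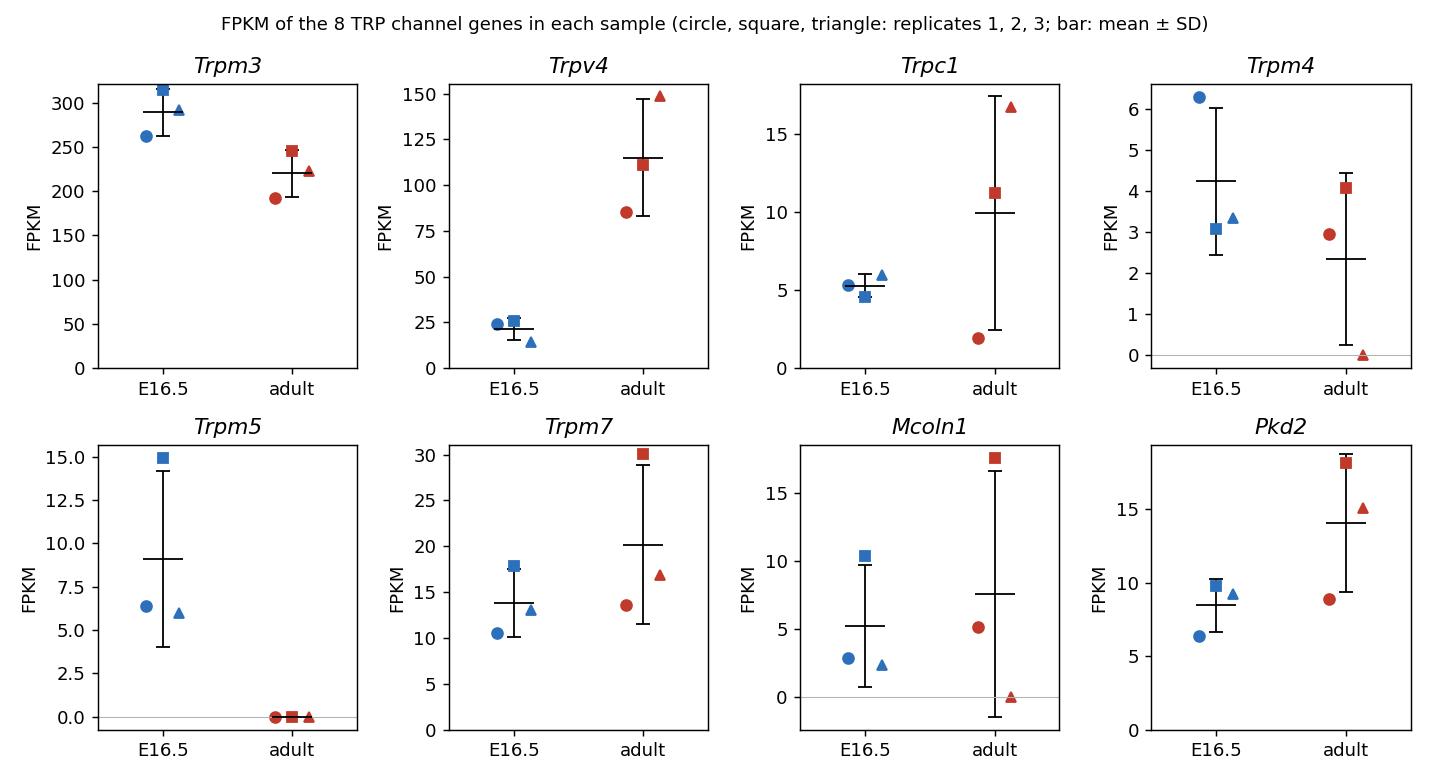
FPKM of the 8 channel genes (y axes, one linear scale per gene) in the 3 E16.5 samples (blue) and the 3 adult samples (red), with circles, squares and triangles for replicates 1, 2 and 3 and bars for the mean ± SD. Trpv4 lies at 85.5 to 149 FPKM in adult and 14.5 to 25.8 at E16.5, Trpm5 is at 0 in all adult samples, and Trpm4 and Mcoln1 are at 0 in adult replicate 3.

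Because both genes were read in the same libraries, their ratio is free of library scaling. It still depends, as do the shares below, on the transcript lengths that FPKM divides by. Which transcripts of Trpm3 were made at each age was not tested. The level of Trpm3 was 2.25, 2.22 and 1.50 times that of Trpv4 in the adult samples and 10.7, 12.2 and 20.1 times at E16.5. The ratio was thus lower in each adult sample than in any E16.5 sample, with means of 1.99 ± 0.426 and 14.3 ± 5.02 (SD, n = 3 each, exact permutation p = 0.1). Summed over the 8 genes, the channels came to 311, 438 and 420 FPKM in adult and 324, 401 and 346 FPKM at E16.5. These sums overlapped, with means of 390 ± 68.9 and 357 ± 39.5 FPKM.

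Within this sum, Trpm3 took 62.0%, 56.2% and 53.0% in the adult samples and 80.8%, 78.4% and 84.3% at E16.5. The share of Trpm3 was 57.1% ± 4.57 in adult and 81.2% ± 2.92 at E16.5 (SD, n = 3 each), a difference of -24.1 percentage points with an exact permutation p of 0.1. Trpv4 took 27.5%, 25.3% and 35.4% in adult and 7.52%, 6.43% and 4.20% at E16.5. Its share was 29.4% ± 5.29 and 6.05% ± 1.69, a difference of 23.4 points with an exact permutation p of 0.1. Neither pair of ranges overlapped, and over all 28 TRP genes in the table the differences were -24.2 and 22.8 points. Shares of the same sum are tied, so the lower share of Trpm3 and the higher share of Trpv4 are not separate results. Pkd2 took 2.87%, 4.15% and 3.60% in adult and 1.98%, 2.44% and 2.67% at E16.5, which did not overlap either (exact permutation p = 0.1). Trpm5 took 0% in each adult sample and 1.97%, 3.73% and 1.73% at E16.5. These shares are tied to the same sum, and the FPKM of Pkd2 overlapped between the ages and was not called.

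**Figure D2:**
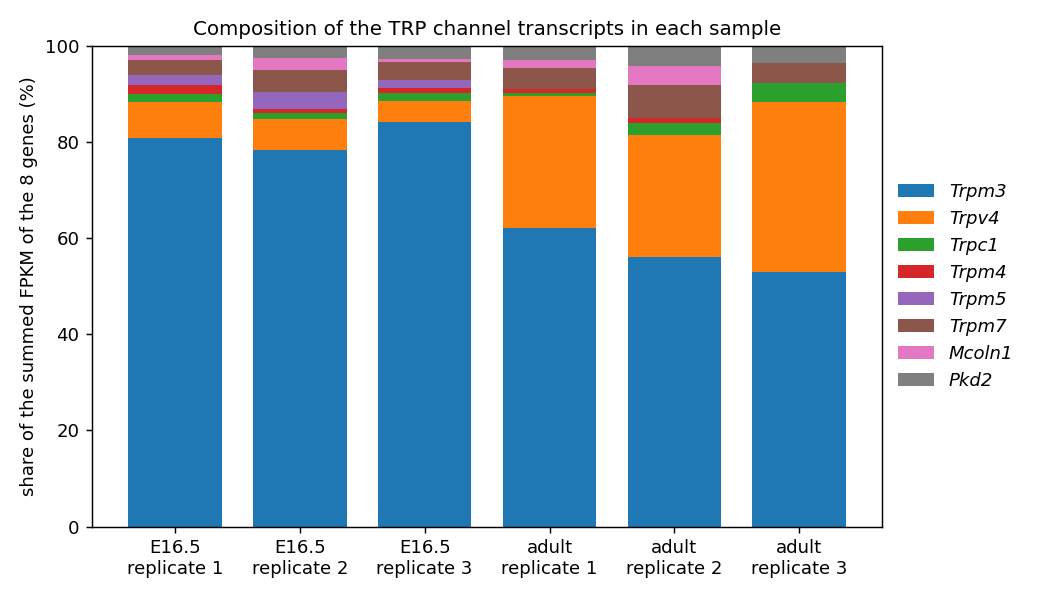
Share of the summed FPKM of the 8 channel genes (y axis, percent) taken by each gene in each sample (x axis). Trpm3 takes 78.4% to 84.3% of the sum at E16.5 and 53.0% to 62.0% in adult, and Trpv4 4.20% to 7.52% and 25.3% to 35.4%.

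Trpm4 and Trpm5 encode channels that are opened by intracellular calcium and pass sodium and potassium rather than calcium, and Trpm5 is known from taste cells and tuft cells. Trpm5 (chr7:143069153-143094642, minus strand) was listed at 0 in all 3 adult samples and at 6.40, 14.9 and 5.97 FPKM at E16.5. It was called higher at E16.5 (adjusted p = 0.0243 by limma, exact permutation p = 0.1). An exact 0 can be a failed estimate, so no fold change is given. The call rests on the same 3 adult values of 0. Trpm5 also passed the filter on mean FPKM only through its E16.5 levels, which favours a negative change. In a transcript of the longest annotated coding length, 1 read is worth 0.0287 to 0.0834 FPKM in the adult libraries. A pattern of 0 in each adult sample and a value above 0 in each E16.5 sample was shown by 4.32% of the genes tested. The call was made in 16 of 22 other settings, and lost, among others, without adult replicate 1 (adjusted p = 0.0577 by limma) and without E16.5 replicate 1, 2 or 3 (0.0765, 0.0700 and 0.0677, with the filter taken anew). With the same genes tested as with all 6 samples, it was called without each E16.5 replicate (0.0435, 0.0490 and 0.0485). Exons of Trpm5 share 220 bases with Tssc4 on the opposite strand, which is 2.57% of the 50-base stretches of Trpm5. Tssc4 was at 0, 10.8 and 53.1 FPKM in adult and 17.1, 4.73 and 4.41 FPKM at E16.5. The sample with the highest Trpm5 was therefore not the one with the highest Tssc4. Reads of the shared bases cannot be told apart, and their part in the Trpm5 values was not tested.

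Trpm4 (chr7:45302632-45333780, minus strand) was at 2.97, 4.07 and 0 FPKM in adult and 6.31, 3.08 and 3.35 FPKM at E16.5. The ages overlapped. The log2 change was -0.90 (SE 0.81, 95% interval -2.78 to 0.99, adjusted p = 0.465 by limma, exact permutation p = 0.4). The 0 stands in adult replicate 3, the shallowest library, and the value of adult replicate 1 rests on between 3.46 and 46.8 reads, depending on the transcript length.

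Trpm7 encodes a channel for magnesium, calcium and zinc that carries a protein kinase at its C-terminal end and is made by most cells. It lies at chr2:126791565-126876230 on the minus strand. Trpm7 was at 13.6, 30.0 and 16.9 FPKM in adult and 10.6, 17.9 and 13.04 FPKM at E16.5. The highest value of each age was that of replicate 2, and the ages overlapped. With means of 20.2 ± 8.69 and 13.8 ± 3.69 FPKM (SD, n = 3 each), its log2 change was 0.47 (SE 0.48, 95% interval -0.65 to 1.59, adjusted p = 0.521 by limma, exact permutation p = 0.4).

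Trpc1 encodes a channel subunit linked to calcium entry after activation of phospholipase C and after emptying of calcium stores. It lies at chr9:95705082-95750375 on the minus strand. Its levels were 1.91, 11.2 and 16.7 FPKM in adult and 5.33, 4.56 and 5.98 FPKM at E16.5. Adult samples stood both below and above all E16.5 samples, and the SD was 7.49 FPKM in adult against 0.711 at E16.5. The log2 change of 0.45 (SE 0.79, 95% interval -1.39 to 2.29) did not pass the test (adjusted p = 0.720 by limma, exact permutation p = 0.6). Without adult replicate 3 it was -0.074.

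Pkd2 encodes polycystin-2, a channel of the primary cilium and the endoplasmic reticulum that pairs with polycystin-1, the product of Pkd1. It lies at chr5:104459450-104505819 on the plus strand. Pkd2 was at 8.91, 18.2 and 15.1 FPKM in adult and 6.41, 9.78 and 9.23 FPKM at E16.5. Adult replicates 2 and 3 were above all E16.5 samples and adult replicate 1 lay among them. The log2 change was 0.64 (SE 0.52, 95% interval -0.56 to 1.83, adjusted p = 0.422 by limma, exact permutation p = 0.3). Pkd1 was at 11.4, 9.72 and 7.89 FPKM in adult and 4.93, 2.86 and 4.27 FPKM at E16.5, without overlap (log2 change 1.10, adjusted p = 0.222 by limma). Pkd1 falls outside the rule for named genes and was chosen after its values were seen. The ratio of Pkd2 to Pkd1 was 0.780, 1.87 and 1.92 in adult and 1.30, 3.42 and 2.16 at E16.5, with overlap (exact permutation p = 0.4).

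Mcoln1 encodes mucolipin-1, which releases calcium and other cations from lysosomes. It lies at chr8:3500457-3515232 on the plus strand. Mcoln1 was at 5.11, 17.6 and 0 FPKM in adult and 2.83, 10.4 and 2.34 FPKM at E16.5. Its adult values enclosed those of E16.5, with the 0 again in adult replicate 3. The log2 change of -0.12 had an SE of 1.14 and a 95% interval of -2.77 to 2.53 (adjusted p = 0.950 by limma, exact permutation p = 1). Without adult replicate 3 it was 1.018, and without E16.5 replicate 2 it was 0.44. The interval spans changes as large as the rise of Trpv4, so these samples set no useful limit on the change of Mcoln1.

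**Figure D3:**
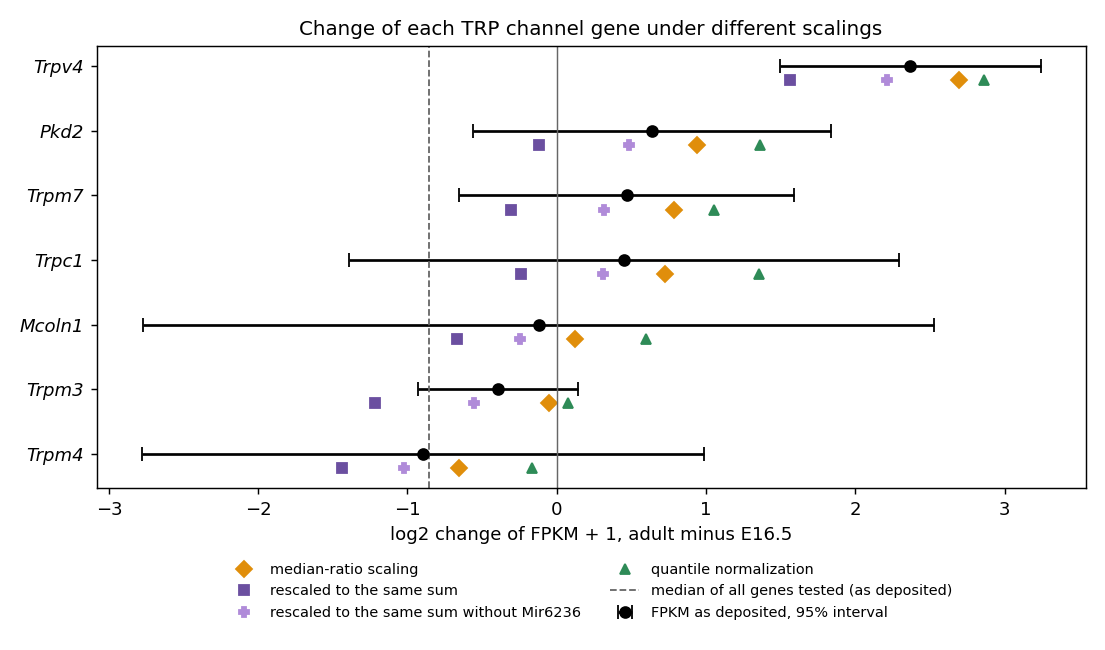
Log2 change of FPKM + 1, adult minus E16.5 (x axis), of the 7 channel genes above 0 at both ages (rows), with the 95% interval of the limma fit on FPKM as deposited (black) and the change under 4 other scalings (coloured symbols). Trpv4 stays between 1.56 and 2.86 under the scalings, while Trpm3 runs from -1.22 to 0.078; the dashed line is the median of all genes tested, -0.86.

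Of the 8 members, 1 was called higher in adult (Trpv4), where 2.12% of all genes tested were. Another 1 was called higher at E16.5 (Trpm5, which passed the filter only through its E16.5 levels), where 8.83% of all genes tested were. In 1 member each adult sample was above each E16.5 sample (Trpv4), against 7.39% of the genes tested, and in 2 each adult sample was below (Trpm3 and Trpm5), against 31.0%. With 8 genes, nothing is read from these counts for the family. The median log2 change of the members was 0.17, beside -0.86 over all genes tested. It was 0.43 beside -0.58 with median-ratio scaling, -0.49 beside -1.48 with libraries rescaled to the same sum, 0.03 beside -0.99 with Mir6236 left out of the sum, and 0.83 beside -0.18 with quantile normalization. Trpc1, Trpm4, Trpm7, Mcoln1 and Pkd2 were called by limma in 0 of 22 other settings each. Trpc1, Trpm7 and Pkd2 turned to changes of -0.24, -0.31 and -0.12 with libraries rescaled to the same sum. Relative to the median of all genes, Trpv4 lay between 3.04 and 3.27 under the 4 other scalings and Trpm3 between 0.26 and 0.52.

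**Figure D4:**
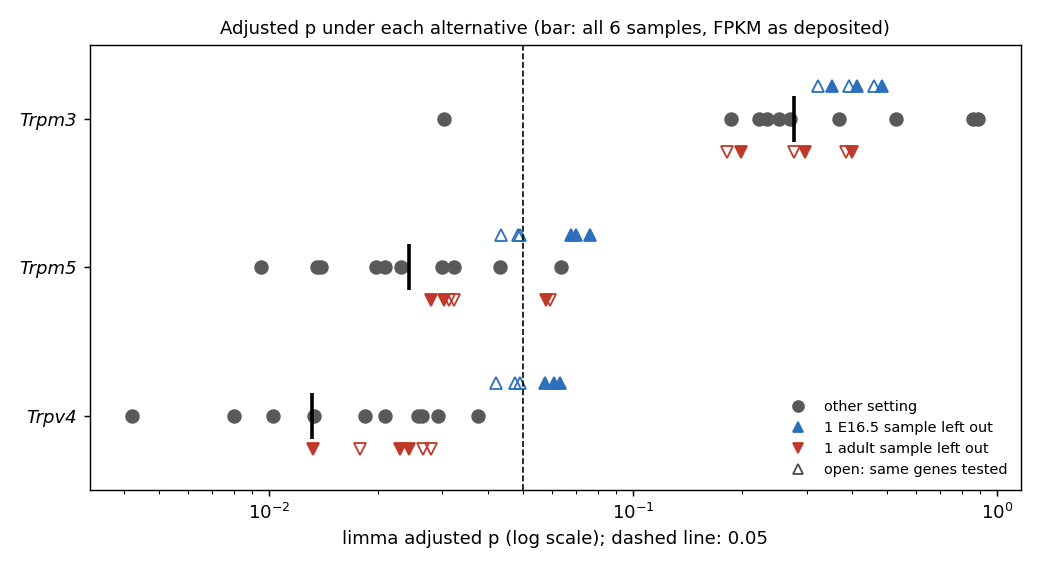
Adjusted p of limma (x axis, log scale) for Trpm3, Trpm5 and Trpv4 (rows) with all 6 samples and FPKM as deposited (black bar) and under 22 other settings: other pseudocounts, filters, scalings and fits (grey circles), 1 E16.5 sample left out (blue) and 1 adult sample left out (red), with open symbols where the same genes were tested. Trpv4 passes 0.05 in 19 of 22 settings, Trpm5 in 16 and Trpm3 in 1.

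Ordered by mean level in adult, the members ran Trpm3, Trpv4, Trpm7, Pkd2, Trpc1, Mcoln1, Trpm4 and Trpm5. Only the steps from Trpm3 to Trpv4, 1.92-fold, and from Trpv4 to Trpm7, 5.70-fold, separated the samples fully. All later neighbours overlapped. At E16.5 the order was Trpm3, Trpv4, Trpm7, Trpm5, Pkd2, Trpc1, Mcoln1 and Trpm4. Here Trpm3 stood 13.4-fold above Trpv4, and Trpv4 was above Trpm7 in each sample although their ranges overlapped. Apart from the step below Trpm3, the one step without overlap was that from Pkd2 to Trpc1, 1.60-fold.

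The other 20 TRP genes of the table were mostly low. Of these, 8 were listed at 0 in all 6 samples and 18 in all adult samples. Summed, they came to 17.1, 9.88 and 0 FPKM in adult and 7.55, 8.30 and 2.95 FPKM at E16.5, beside 311 to 438 FPKM for the 8 members. Just 1, Pkd2l2, a relative of Pkd2, passed the filter on mean FPKM. It was at 17.1, 9.51 and 0 FPKM in adult and at 1.49, 4.88 and close to 0 FPKM at E16.5, and it was not called (log2 change 1.23, SE 1.22, adjusted p = 0.506 by limma).

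Trpm3 carries the gene of miR-204 in an intron (Mir204, chr19:22750605-22750672, plus strand), and its relative miR-211 lies within Trpm1. The mature sequences are shown because Trpm3, the host gene of miR-204, is the leading member. Both come from RefSeq (GRCm38.p6), with the seed, bases 2 to 8, in capitals.
mmu-miR-204-5p: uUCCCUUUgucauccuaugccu
mmu-miR-211-5p: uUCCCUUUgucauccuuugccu
They share the seed UCCCUUU and differ at 1 of 22 positions. The rows Mir204 and Mir211 were listed at 0 in all 6 samples. The method pulls down mRNA on ribosomes, so these rows say nothing of the mature microRNAs.

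Genes that work with TRP channels were followed in 4 lists, 61 genes of which 50 were tested. In all, 3 of them rose with age and 3 fell, beside 2.12% and 8.83% of all genes tested. Among 20 partners of TRP channels, 14 were tested, with a median log2 change of -0.86. Slc12a2, the sodium, potassium and chloride cotransporter NKCC1 of the apical ChP membrane, rose with age. It was at 216, 203 and 165 FPKM in adult and 35.04, 32.1 and 44.6 FPKM at E16.5, with no overlap (log2 change 2.36, SE 0.28, adjusted p = 0.00558 by limma). It was called in 20 of 22 other settings, and not without E16.5 replicate 1 or 2 (adjusted p up to 0.0559). The change was close in size to that of Trpv4, and the ratio of Slc12a2 to Trpv4 was 2.52, 1.84 and 1.11 in adult and 1.44, 1.25 and 3.08 at E16.5 (exact permutation p = 0.9).

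Calm2 and Calm3 encode calmodulin, the calcium-binding protein that attaches to many TRP channels, and both fell with age. Calm2 was at 82.9, 175 and 123 FPKM in adult and 775, 635 and 685 FPKM at E16.5 (log2 change -2.51, SE 0.31, adjusted p = 0.00634 by limma). Calm3 was at 235, 301 and 229 FPKM in adult and 785, 815 and 696 FPKM at E16.5 (log2 change -1.59, SE 0.23, adjusted p = 0.00930 by limma). In both genes the ages lay far apart. Of the 50-base stretches of Calm2 and Calm3, 9.72% and 2.52% are shared with other genes, and reads there are uncertain. Both calls were lost when any of the E16.5 samples was left out and the filter taken anew, with adjusted p by limma of up to 0.0559 for Calm2 and 0.0632 for Calm3. Calm3 was also not called by limma without a trend (adjusted p = 0.0561). Some channels that calcium opens were in the list of partners. Ano1, a chloride channel, was at 0, 0.385 and 0 FPKM in adult and 0, 0 and 0.803 FPKM at E16.5. Kcnn4, a potassium channel, was at 0 in all samples but E16.5 replicate 1, with 0.0455 FPKM. Kcnma1, another potassium channel, was at 0 in all adult samples and at 0.205, 2.399 and 0.367 FPKM at E16.5. Ano6, a relative of Ano1, was at 20.01, 29.9 and 41.1 FPKM in adult and 9.65, 14.6 and 6.99 FPKM at E16.5, without overlap, and was not called (log2 change 1.45, adjusted p = 0.0914 by limma). Of the other partners, Aqp1 was at 68.6, 168 and 123 FPKM in adult and 254, 262 and 226 FPKM at E16.5 (adjusted p = 0.0797 by limma). Pacsin3 was at 7.39, 8.84 and 0 FPKM in adult and 20.5, 25.0 and 11.7 FPKM at E16.5 (0.169). Both were lower in each adult than in any E16.5 sample. In 3 of the 20 partners each adult sample was above each E16.5 sample, and in 6 below. The 6 include Kcnma1, which was not tested. Among the genes tested alone, 7.39% were above and 31.0% below. Ano1, Kcnn4, Kcnma1, Ano6, Aqp1 and Pacsin3 were chosen after their values were seen.

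For calcium release and store entry, 15 of 19 genes were tested. The median log2 change was 0.01. Itpr1, an inositol trisphosphate receptor that releases calcium from the endoplasmic reticulum, rose with age. Its levels were 197, 208 and 198 FPKM in adult and 71.9, 59.9 and 86.5 FPKM at E16.5 (log2 change 1.47, SE 0.26, adjusted p = 0.0183 by limma), and the ages did not overlap. It was called in 15 of 22 other settings. With libraries rescaled to the same sum the log2 change was 0.65 and no longer called (adjusted p = 0.198 by limma), nor was it without a trend (0.0705). Without E16.5 replicate 1, 2 or 3 and with the filter taken anew the adjusted p was 0.0751, 0.0745 and 0.0557, and with the same genes tested the call was lost without replicate 2 (0.0515). Stim2, a calcium sensor of the store, was at 51.8, 56.7 and 15.8 FPKM in adult and 24.3, 28.3 and 26.9 FPKM at E16.5, with overlap (adjusted p = 0.590 by limma). Of the 10 enzymes that make or break phosphoinositides, lipids that gate many TRP channels, 0 were called by limma, and their median log2 change was -0.28. At an unadjusted p under 0.05, Inpp5e alone passed (11.3 ± 2.54 FPKM at E16.5 and 2.402 ± 2.12 in adult, SD, n = 3 each). Its adjusted p was 0.118 by limma. The adult samples were at 3.20, 4.01 and 0 FPKM, with the 0 in the shallow adult replicate 3. Inpp5e falls outside the rule for named genes. The most abundant, Pip5k1b and Pi4ka, had log2 changes of 0.76 (SE 0.36, adjusted p = 0.197) and 0.66 (SE 0.45, adjusted p = 0.347) by limma.

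The last list held genes of magnesium transport, the function TRPM7 is known for. Of 12 genes 11 were tested, and all 11 had positive log2 changes, where 3158 of the 11601 genes tested did. Their median was 1.04 beside -0.86. Of the 11, Slc41a2, Slc41a3, Cnnm4 and Nipa2 had E16.5 means of 0.0201, 0.492, 0.866 and 0.989 FPKM. These genes passed the filter only through their adult levels, which favours a positive change. Cnnm1, which was not tested, was at 0 in adult and at a mean of 0.0479 FPKM at E16.5. The count of positive changes is therefore not read as a rise of the list. With libraries rescaled to the same sum, with or without Mir6236, 10 of 11 were positive, with medians of 0.59 and 0.91. Cnnm2, a magnesium transporter of epithelia, was the 1 that was called. It was at 25.8, 36.5 and 56.1 FPKM in adult and 6.27, 10.3 and 9.94 FPKM at E16.5, with no overlap (log2 change 2.002, SE 0.46, adjusted p = 0.0372 by limma). This call held in 9 of 22 other settings, with adjusted p up to 0.119. It was lost with libraries rescaled to the same sum (log2 change 1.23, adjusted p = 0.105 by limma), just lost with Mir6236 left out of the sum (0.0506) and without a trend (0.0501), and lost without adult replicate 2 and without any of the E16.5 replicates. Mrs2, a magnesium channel of mitochondria, was at 45.0, 50.7 and 46.2 FPKM in adult and 30.0, 21.2 and 21.6 FPKM at E16.5, without overlap, and was not called (adjusted p = 0.105 by limma). In 4 of the 11 each adult sample was above each E16.5 sample, against 7.39% of the genes tested.

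**Figure D5:**
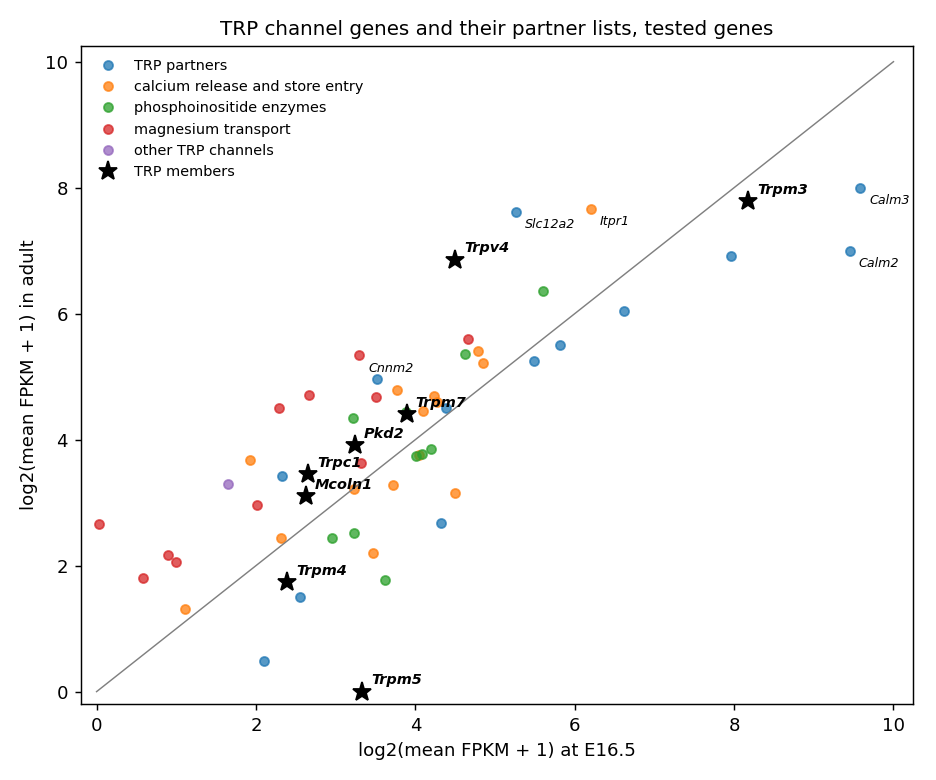
Log2 of the mean FPKM + 1 at E16.5 (x axis) and in adult (y axis) for the 8 channel genes (stars) and the tested genes, 1 left out, of the lists of partners, calcium release, phosphoinositide enzymes, magnesium transport and other TRP channels (circles), with the line of equal level. The 11 tested magnesium transport genes lie above the line, and Calm2 and Calm3 below it, with Trpv4, Slc12a2 and Itpr1 on the adult side.

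The genes whose levels followed those of a member most closely over the 6 samples were sought among all genes tested. For Trpv4, these were Nfe2l1, Mmp15, Kcnk1, Acot11 and Tmem38a, with Pearson's r of log2(FPKM + 1) from 0.991 to 0.995. For Trpm3, they were Dpcd, Rfx2, Dcaf5, Isca1 and Zfp579, with r from 0.985 to 0.994. In all, 322 genes had an r over 0.9 with Trpv4 and 531 with Trpm3. The 6 points share the gap between the ages and the depth of their libraries, so these values only describe the likeness. Kcnk1, a potassium channel, was at 93.8, 115 and 191 FPKM in adult and 25.2, 30.5 and 19.98 FPKM at E16.5, the order of the samples of Trpv4. Rfx2, a transcription factor of ciliated cells, was at 1.16, 8.76 and 4.35 FPKM in adult and 14.7, 29.6 and 24.0 FPKM at E16.5, the order of the samples of Trpm3.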

How the data were processed

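TRAP-seq was analysed from 3 adult and 3 E16.5 samples of ChP, grouped by the age in their labels. The authors made libraries with a low-input kit and ribosomal depletion, aligned 50-base single-end reads to mm10 with STAR (2.4.0 in the submitters' processing notes) and computed the deposited FPKM values with Cufflinks (its Cuffquant step). Which annotation that step used is not given in the sources used here, and the read counts behind the study's DESeq2 test were not analysed here. No other column of the table held values of single samples.

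FPKM were used as deposited. A limma model (version 3.58.1, under R 4.3.3) of log2(FPKM + 1) with age as its only term and a trend in intensity was fitted to 11601 of 24354 genes, those whose mean FPKM exceeded 1. Benjamini-Hochberg adjusted p under 0.05 counted as called, and the script was tested on simulated data. Shares and ratios were compared by exact two-sided permutation tests, whose smallest p is 0.1 here. The members and lists were chosen with earlier results of these data known. The genes named are the members, every called gene and the 2 most abundant of each list, and the 5 genes most like Trpm3 and Trpv4, with exceptions named where they occur. Of the lists, 1 called gene, which the counts include, is not reported here.

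The limma results were recomputed under 22 alternatives: pseudocounts of 0.1 and 0.01, no filter, FPKM above 1 in at least 3 samples, 4 scalings, no trend, a replicate block, and each sample left out, once with the filter taken anew and once with the same genes tested. The last was added after seeing the data. Shares were recomputed without each sample and over all TRP genes, and sums, ratios, orders and likeness only as given. Depth was read from the step of 1 read in the 60 lowest values of 2520 coding genes with 1 transcript over 1000 bases (effective length 200 bases shorter, steps within 2%). Coordinates and transcripts are from GENCODE M21 (mm10), and sequences from RefSeq (GRCm38.p6).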

Additional observations from a re-analysis of the deposited data

How the results depend on the processing

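Over 22 alternatives, Trpv4 kept its direction in all 22 and its call in 19, and Trpm5 its direction in 22 and its call in 16. Most values of the exceptions are given with the genes above, and their cause was not tested. Without adult replicate 1 and with the same genes tested, Trpm5 had an adjusted p of 0.0593. The number of members called higher in adult was 1, and 0 to 1 when a sample was left out. The number called higher at E16.5 was 1, became 2 with libraries rescaled to the same sum, and was 0 to 1 when a sample was left out. Trpm3 turned to 0.078 with quantile normalization. With libraries rescaled to the same sum, Trpc1 turned to -0.24, Trpm7 to -0.31 and Pkd2 to -0.12. Mcoln1 turned to 0.12 with median-ratio scaling and to 0.60 with quantile normalization. With 1 sample left out, Trpc1 ran from -0.074 to 1.23 and Mcoln1 from -1.09 to 1.018, and Mcoln1 was at 0.44 without E16.5 replicate 2. Pseudocounts of 0.1 and 0.01 moved Mcoln1 to -1.01 and -2.09 and Trpm4 to -1.93 and -3.03, without a call by limma. The shares of Trpm3 and Trpv4 kept their direction without each sample and with all TRP genes as the denominator.

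Of the partner, calcium, phosphoinositide and magnesium genes, 3 were called higher in adult. This became 1 with the same sum, 6 with quantile normalization, 1 without a trend and 0 to 4 when a sample was left out. The 3 called higher at E16.5 became 7 with the same sum, 1 without a trend and 0 to 4 when a sample was left out. Over all genes, 246 rose and 1024 fell with age. The first became 119 with the same sum, 464 with quantile normalization, 158 without a trend and 27 to 357 when a sample was left out (lowest without E16.5 replicate 2). The second became 660 with median-ratio scaling, 3238 with the same sum, 453 with quantile normalization and 16 to 1704 when a sample was left out (lowest without E16.5 replicate 2, highest without adult replicate 2), so that with quantile normalization the split evened out. With the same genes tested, the first was 131 and the second 484 when adult replicate 1 was dropped. Dropping E16.5 replicate 1, 2 or 3 gave 100, 90 or 97 and 478, 349 or 407.

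The labels number the replicates of both ages. The deviations of samples with the same number had correlations of 0.000895, 0.0439 and 0.0150. Adult replicates 2 and 3 correlated best with the E16.5 sample of their own number, and adult replicate 1 with E16.5 replicate 3 (0.00494). All these values were near 0, so with 3 samples per age they cannot show whether the numbers pair the samples. With the replicate number as a block, limma called 112 genes up and 452 down with age, of the members 1 and 0, and of the partner and other listed genes 1 higher in adult. Trpm5 then had an adjusted p of 0.0635. Itpr1 (0.0501) and Cnnm2 (0.0691) also lost their calls there. Trpm4 and Mcoln1 were listed at 0 in the shallowest library.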
